A study of Mus musculus with 6 samples.

Results

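MiR-21, miR-146a, miR-146b, miR-147 and miR-155 are miRNAs that inflammatory signals induce in macrophages, ECs and other cells of the arterial wall. They were found by their exact names in the assay list, star strands left out, and each had 1 assay, so that 5 of the 596 mouse miRNA assays are described. RNA of the whole aorta was measured with TaqMan MicroRNA array cards in 3 EC-Dicerflox mice (VE-Cadherin-CreERT2, Dicer1 flox/flox, Apoe-/-) and in 3 EC-DicerWT littermates (VE-Cadherin-CreERT2, Dicer1 WT/WT, Apoe-/-). The mice of both groups therefore carried the Cre transgene and lacked apolipoprotein E. All had received tamoxifen on 5 consecutive days at 2 mg per 20 g of body weight, started an HFD at an age of 6 to 8 weeks, and ate it for 4 weeks. The VE-Cadherin promoter drives the Cre recombinase in ECs, so that Dicer of smooth muscle cells and leukocytes was not targeted. In RNA of a whole aorta, fewer cells of a type and less RNA per cell cannot be told apart.

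MiRNAs repress mRNAs mainly through the seed, bases 2 to 8 of the mature strand, and Dicer cuts the mature strand out of a hairpin precursor. NF-kB, the transcription factor downstream of toll-like receptors and cytokine receptors, activates the genes of miR-146a and miR-155. MiR-146a and miR-146b then dampen the same pathway by repressing its adaptors TRAF6 and IRAK1, while miR-155 promotes inflammatory responses of macrophages and lymphocytes, in part by repressing SOCS1. MiR-147 is induced through toll-like receptors in macrophages and restrains their cytokine response. MiR-21 is abundant in the vessel wall, where it is known from smooth muscle cell growth and from macrophages, and PDCD4 is among its targets.

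The mature strands of 4 of the 5 miRNAs matched the RefSeq miRNA table (build GRCm38.p6), and they are shown because their seeds define which of them can share targets. The seed is in capitals, and each strand is written 5′ to 3′.
miR-21 (RefSeq name miR-21a-5p, chr11:86584120-86584141, minus strand): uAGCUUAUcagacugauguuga
miR-146a (miR-146a-5p, chr11:43374435-43374456, minus strand): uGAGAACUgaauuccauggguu
miR-146b (miR-146b-5p, chr19:46342790-46342811, plus strand): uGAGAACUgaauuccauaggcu
miR-155 (miR-155-5p, chr16:84714143-84714165, plus strand): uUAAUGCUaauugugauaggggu

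These 4 strands carry 3 different seeds. MiR-146a and miR-146b have the same one, and of their 22 bases 20 are identical. With positions counted from the 5′ end, the substitutions from miR-146a to miR-146b are G18A and U21C, both outside the seed. Among the 1679 mature strands of this table, which is not complete, the seed of miR-21 was shared by 1 other strand (miR-21c), and that of miR-155 by 0. The members come from separate genes. In the RefSeq gene table, Mir21a overlaps Vmp1, a gene of autophagy, Mir155 overlaps its noncoding host gene Mir155hg, Mir147 overlaps the protein-coding gene AA467197, Mir146b overlaps the lncRNA Gm36493, and Mir146 (the gene of miR-146a) overlaps no other gene.

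Each value is a CT, the PCR cycle at which fluorescence crosses a threshold. More RNA gives a lower CT, 1 cycle is a factor of 2 at full efficiency, and a well without a signal is listed at 40. Of the 596 assays, 461 were under 40 in at least 1 of the 6 aortas and 350 in all 6. Between 375 and 415 miRNAs were under 40 in a sample, the fewest in EC-Dicerflox replicate 3. This sample also had the highest median CT over the miRNAs seen in all samples (28.2, against 26.4 to 27.5 in the others). Dicer mRNA is not on the cards, so that the genotype could not be checked in these data. Markers of the tissue were strongly detected: the smooth muscle miRNAs miR-143 and miR-145 had CT values of at most 18.1, and the EC-enriched miR-126-3p of at most 19.1. Liver-enriched miR-122 was also seen in all 6 aortas, at CT values from 20.5 to 28.0 that overlapped between the groups.

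The 5 miRNAs were measured at very different levels. MiR-21, miR-146a and miR-155 were detected in all 6 aortas, miR-147 in 4, and miR-146b in 0, where a failed assay cannot be told apart from a low level. MiR-21 had CT values of 20.01, 19.79 and 21.19 in EC-Dicerflox replicates 1, 2 and 3 and of 19.90, 20.43 and 20.94 in EC-DicerWT replicates 1, 2 and 3. The groups overlapped, and the highest CT belonged to EC-Dicerflox replicate 3. MiR-146a had CT values of 20.47, 20.20 and 21.73 in EC-Dicerflox and of 20.97, 20.77 and 21.42 in EC-DicerWT mice. MiR-155 had CT values of 26.22, 25.98 and 27.92 in EC-Dicerflox and of 26.57, 26.79 and 27.06 in EC-DicerWT mice. All 3 miRNAs therefore had their highest CT in EC-Dicerflox replicate 3, the sample with the highest CT over all miRNAs.

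**Figure D1:**
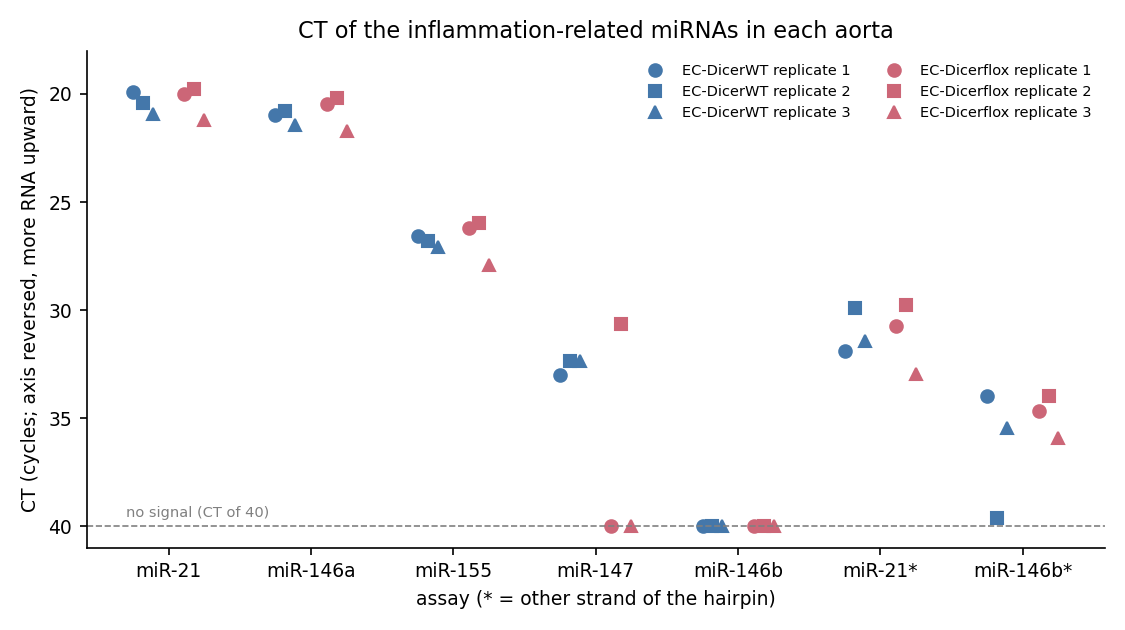
CT in cycles (reversed axis, so that more RNA lies higher) of each of the 5 miRNAs and of the other strand of miR-21 and miR-146b (marked *), with 1 point per aorta, colours for the groups and symbols for the replicate numbers. MiR-21 and miR-146a lie near a CT of 20 in all aortas, miR-147 is at the limit of 40 in 2 EC-Dicerflox aortas, and miR-146b is at the limit in all 6 while miR-146b* is not.

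Of the 461 detected miRNAs, only 5.64% had a lower mean CT than miR-21, 6.72% than miR-146a, 34.9% than miR-155 and 77.2% than miR-147, with wells at 40 counted as 40. The order of miR-21 and miR-146a was the same in each aorta: the CT of miR-146a was higher by 0.34 to 1.07 cycles. MiR-155 had a CT 5.60 to 6.19 cycles above that of miR-146a, a gap several times wider than its range over the 6 samples. MiR-147 came next: its log2 ratio to miR-155 ranged from -13.78 to -4.66, with wells at 40 counted as 40. This is an order of signals and not of molecules, because the assays need not be equally efficient.

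Both strands of a hairpin can be measured for miR-21 and miR-146b, and their precursors are shown for that reason. Capitals mark the arms, the 5′ arm first, and the sequences are those of RefSeq.
Mir21a hairpin (chr11:86584067-86584158, minus strand): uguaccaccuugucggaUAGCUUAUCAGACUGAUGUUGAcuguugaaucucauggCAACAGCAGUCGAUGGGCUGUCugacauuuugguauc
Mir146b hairpin (chr19:46342762-46342870, plus strand): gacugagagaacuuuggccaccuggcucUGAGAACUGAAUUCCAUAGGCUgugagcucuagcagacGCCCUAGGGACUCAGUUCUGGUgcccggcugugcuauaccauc

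MiR-146b, the 5′ arm of its hairpin and the seed partner of miR-146a, was listed at 40 in all 6 aortas. The opposite arm, miR-146b*, was under 40 in all 6. Its CT values were 34.68, 33.99 and 35.90 in EC-Dicerflox and 33.97, 39.64 and 35.45 in EC-DicerWT mice. EC-DicerWT replicate 2 stood almost at the limit, and the other 5 samples lay within 2 cycles of each other. These assays are on different cards, and which of them reflects the level of the hairpin was not tested. No fold change can be given for miR-146b. The estimate for miR-146b* was a log2 fold change of 1.65 with a 95% interval from -2.22 to 5.52 (limma, adjusted p = 0.923).

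The strands of miR-21 were far apart. MiR-21*, the 3′ arm, had CT values of 30.72, 29.76 and 32.98 in EC-Dicerflox and of 31.90, 29.92 and 31.43 in EC-DicerWT mice. The CT of miR-21 lay 9.50 to 11.99 cycles below that of miR-21* of the same aorta. This distance was 10.8 ± 0.918 cycles (SD, n = 3) in EC-Dicerflox and 10.7 ± 1.26 cycles (SD, n = 3) in EC-DicerWT mice and did not separate the groups (exact permutation test, two-sided p = 0.8, adjusted p = 1 over 3 such differences). Without EC-Dicerflox replicate 3 the difference between the groups turned from 0.16 to -0.32 cycles.

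To compare the groups, each CT was subtracted from the mean CT of the control RNAs U6 and snoRNA135 of the same aorta, which gives a log2 level per control RNA. The test was limma, fitted on all 461 detected miRNAs at once. None of the 4 members tested passed an adjusted p-value of 0.05. This matches the array as a whole, of which 0% passed, with a smallest adjusted p-value of 0.508. At an unadjusted p-value under 0.05, 0 of the 4 members and 3.04% of all 461 miRNAs (14) were called. The groups did not overlap for 1 of the 4 members, miR-146a, and for 10.4% of all miRNAs.

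MiR-146a, the brake on TRAF6 and IRAK1, had the most even separation of the groups. Its log2 levels were -1.58, -1.50 and -1.51 in EC-Dicerflox and -2.16, -1.82 and -1.81 in EC-DicerWT mice. Per both control RNAs, all 3 EC-Dicerflox aortas lay above every EC-DicerWT aorta. With U6 alone or snoRNA135 alone, the groups overlapped, and the standard error of the log2 fold change was 0.38 with each. Per both control RNAs, the log2 fold change was 0.40 (standard error 0.24, 95% interval -0.20 to 1.00), which is 1.32-fold with an interval from 0.872 to 2.00. The unadjusted limma p-value was 0.148 and the adjusted p-value 0.923. An exact permutation test of the 6 samples gave a two-sided p of 0.1, the smallest that 20 arrangements allow. Aortas that share a replicate number are not known to be matched. Between them, miR-146a was higher in the EC-Dicerflox one by 0.58, 0.32 and 0.30 log2 units. With an ordinary linear model, which takes the spread from miR-146a alone, the unadjusted p-value was 0.0274 and the adjusted p-value 0.891. The standard error was then 0.12, because limma draws the small spread of miR-146a (SD of 0.045 in EC-Dicerflox and 0.199 in EC-DicerWT mice) toward that of all miRNAs.

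MiR-21 showed a smaller difference. Its log2 levels were -1.12, -1.09 and -0.96 in EC-Dicerflox and -1.09, -1.48 and -1.33 in EC-DicerWT mice. EC-DicerWT replicate 1 lay among the EC-Dicerflox aortas, so that the groups overlapped. The log2 fold change was 0.25 (standard error 0.24, 95% interval -0.36 to 0.85, limma adjusted p = 0.923), or 1.19-fold with an interval from 0.781 to 1.80. The exact permutation test gave a two-sided p of 0.2. The differences within the pairs of replicates 1, 2 and 3 were -0.024, 0.39 and 0.37 log2 units.

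MiR-155 had log2 levels of -7.33, -7.28 and -7.70 in EC-Dicerflox and of -7.76, -7.85 and -7.46 in EC-DicerWT mice. Replicate 3 ran against the others: it was the lowest of the EC-Dicerflox and the highest of the EC-DicerWT aortas. The log2 fold change was 0.25 (standard error 0.26, 95% interval -0.41 to 0.92, limma adjusted p = 0.923), or 1.19-fold with an interval from 0.752 to 1.89 (exact permutation test, two-sided p = 0.2). The pair differences were 0.43, 0.57 and -0.24 log2 units. Without EC-Dicerflox replicate 3, the sample that stood apart in its median CT, the log2 fold change was 0.39 for miR-155, 0.20 for miR-21 and 0.39 for miR-146a, with adjusted limma p-values of 0.834, 0.859 and 0.834. Without EC-DicerWT replicate 2, that of miR-21 fell to 0.155 (limma adjusted p = 0.927).

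**Figure D2:**
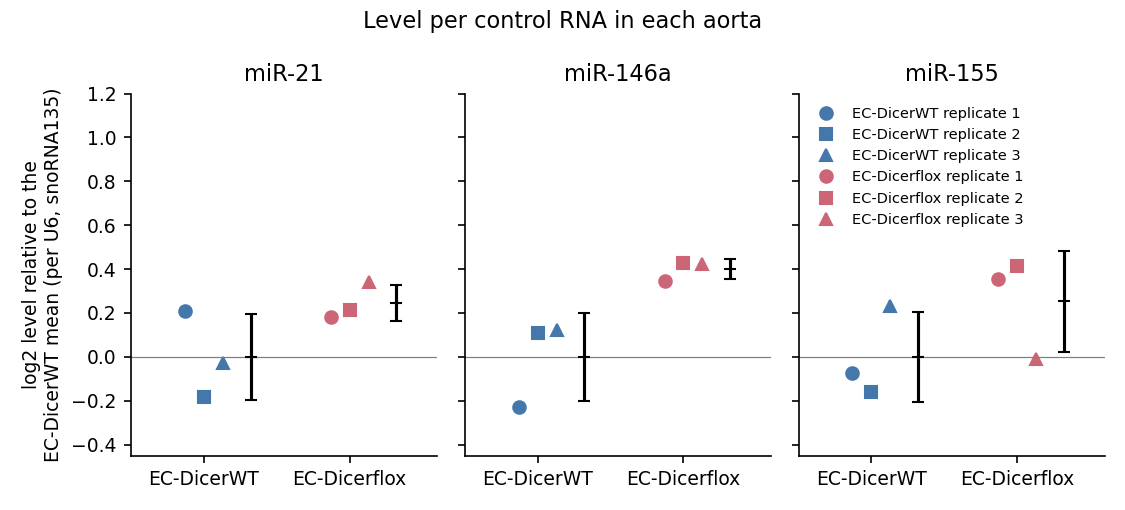
Log2 level of miR-21, miR-146a and miR-155 per U6 and snoRNA135 in each aorta, relative to the EC-DicerWT mean, with the mean and SD of 3 samples as black bars beside the points. The groups overlap for miR-21 and miR-155, and for miR-146a all 3 EC-Dicerflox aortas lie above every EC-DicerWT aorta by a mean of 0.40 log2 units.

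The estimates of miR-21, miR-146a and miR-155 were all above 0, as were 54.4% of all 461 estimates. Over the miRNAs seen in every aorta, the log2 fold change had a median of 0.10. Relative to this median, miR-146a was at 0.30, miR-155 at 0.15 and miR-21 at 0.14. The log2 fold changes of 75.1% of the 461 miRNAs lay below that of miR-146a, of 64.9% below that of miR-155 and of 64.0% below that of miR-21. The choice of the control RNA moved the estimates but not their direction. MiR-146a ranged from 0.24 with snoRNA202 to 0.48 with U6, miR-21 from 0.084 to 0.33 and miR-155 from 0.092 to 0.34, with the same RNAs at both ends.

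**Figure D3:**
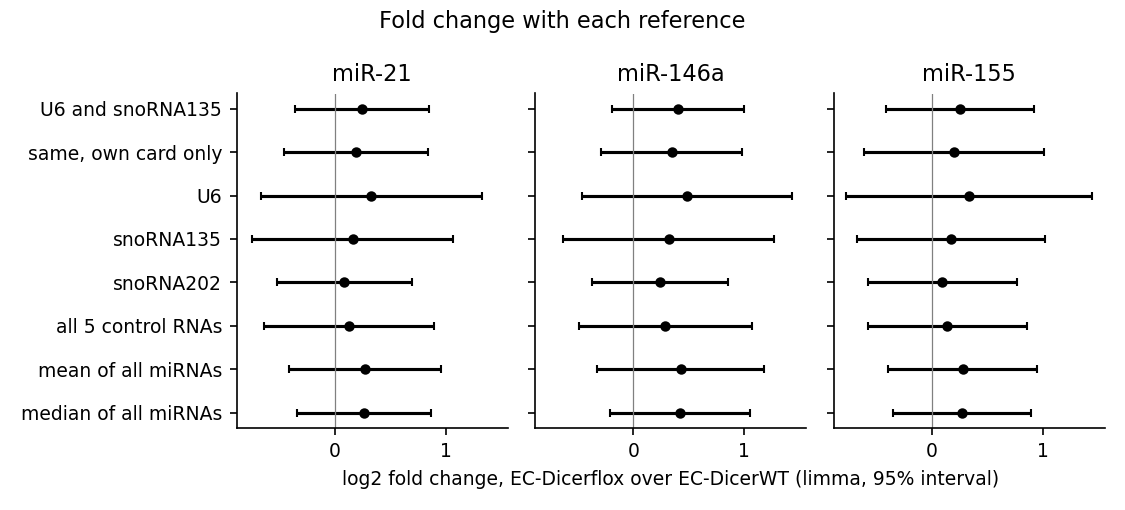
Log2 fold change of EC-Dicerflox over EC-DicerWT mice (points) with the 95% interval from limma (bars), for miR-21, miR-146a and miR-155 and 8 choices of the reference. Every point lies above 0, between 0.084 and 0.48, and every interval includes 0.

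MiR-155 and miR-21 were also compared within each aorta, which needs no control RNA. The log2 ratio of miR-155 to miR-21 was -6.38 ± 0.31 (SD, n = 3) in EC-Dicerflox and -6.39 ± 0.27 (SD, n = 3) in EC-DicerWT mice (exact permutation test, two-sided p = 1). Single aortas ranged from -6.74 to -6.13. The differences within the pairs of replicates 1, 2 and 3 were 0.45, 0.18 and -0.61, so that nearly equal means came from pairs of opposite direction.

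MiR-147 was the member with the most uneven wells. It was seen in all 3 EC-DicerWT aortas, at CT values of 33.03, 32.37 and 32.37, and in 1 EC-Dicerflox aorta. EC-Dicerflox replicate 2 had a CT of 30.63, the strongest signal of all 6, while EC-Dicerflox replicates 1 and 3 were listed at 40. The genotype group thus held both the highest and the lowest values. The EC-DicerWT wells agreed within 0.657 cycles, against a median range of 1.39 cycles over all miRNAs seen in every EC-DicerWT aorta. With wells at 40 entered as 40, the fitted log2 fold change was -4.14 (standard error 2.52, 95% interval -10.51 to 2.23, limma adjusted p = 0.923). It was -0.81 with CT values above 35 set to 35. With wells at 40 left missing, 1 EC-Dicerflox well remained against 3, and the direction turned to 1.54 (95% interval -0.61 to 3.68, limma adjusted p = 0.86), where the lone sample is assumed to vary like the other group. The exact permutation test gave a two-sided p of 0.4. Without EC-Dicerflox replicate 1 the log2 fold change was -2.39 (limma adjusted p = 0.939). Without EC-Dicerflox replicate 2, both remaining wells are at 40 and the log2 fold change was -6.98, with an unadjusted limma p-value of 0.000309 and an adjusted p-value of 0.14. In the pair of replicate 2, miR-147 was instead higher in the EC-Dicerflox aorta, by 1.496 log2 units.

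The pattern of miR-147, 3 EC-DicerWT wells and 1 EC-Dicerflox well with a signal, was shared by 5 of the 461 miRNAs, miR-147 included, and the reverse pattern by 2. For 3 of the 5, the well with a signal was EC-Dicerflox replicate 2, the sample with the most detected miRNAs (415). Of the 18 miRNAs seen in all EC-DicerWT aortas at a mean CT of 32 to 33, 4 were at 40 in at least 1 EC-Dicerflox aorta and 2 in at least 2, with miR-147 counted in each. Of the 19 seen in all EC-Dicerflox aortas at such a mean CT, 0 were at 40 in an EC-DicerWT aorta. The part that the number of detected miRNAs per sample plays in the wells of miR-147 was not tested.

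Macrophages and lymphocytes are main sources of miR-155 and also express miR-146a and miR-21, so that the leukocyte miRNAs are given beside them. All 4 of the leukocyte list (miR-142-3p, miR-142-5p, miR-150 and miR-223) were detected in all 6 aortas. The estimates of 3 were below 0 and that of 1 was above, with a median log2 fold change of -0.40, against 0.082 over all 461 miRNAs. Their range was from -0.996 for miR-142-5p, the 1 whose groups did not overlap and the 1 with an unadjusted p-value under 0.05 (0.00989, adjusted p = 0.923, against 10.4% and 3.04% of all 461 miRNAs), to 0.17 for miR-223. The log2 of the summed level of the list overlapped between the groups, with -0.89 to -0.23 in EC-Dicerflox and -0.54 to 0.32 in EC-DicerWT mice. The EC-enriched miR-126-3p and miR-126-5p had estimates of 0.41 and 0.85 (limma adjusted p = 0.923 for both). For both of them all EC-Dicerflox aortas lay above every EC-DicerWT aorta, and the groups did not overlap for 10.4% of all 461 miRNAs. The log2 of the summed level of miR-126-3p and miR-126-5p was 1.05 to 1.73 in EC-Dicerflox and 0.84 to 0.91 in EC-DicerWT mice. The part of the cell makeup in the values of the members was not tested.

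Set against the mean CT of the 4 leukocyte miRNAs of the same aorta, the levels of all 3 members were higher on average in EC-Dicerflox mice. For miR-146a, the log2 level per leukocyte miRNA was 3.11, 2.68 and 2.85 in EC-Dicerflox and 1.78, 2.09 and 2.35 in EC-DicerWT mice, a difference of 0.81. For miR-21 it was 3.579, 3.094 and 3.395 in EC-Dicerflox and 2.845, 2.431 and 2.825 in EC-DicerWT mice, a difference of 0.66. The groups did not overlap for either (exact permutation tests, two-sided p = 0.1, the smallest possible, adjusted p = 0.15 over the 3 members), and on this scale all EC-Dicerflox aortas lay above every EC-DicerWT aorta for 21.4% of 457 miRNAs. For miR-155 the difference was 0.66 as well, from -3.69 ± 0.336 (SD, n = 3) to -3.02 ± 0.358 (SD, n = 3), and EC-Dicerflox replicate 3 (-3.34) lay below EC-DicerWT replicate 3 (-3.30), so that the groups overlapped (exact permutation test, two-sided p = 0.2, adjusted p = 0.2).

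With only miR-142-3p and miR-223 as the leukocyte miRNAs, the groups overlapped for all 3 members and the differences were 0.35 for miR-21, 0.51 for miR-146a and 0.36 for miR-155 (exact permutation tests, two-sided p = 0.2, 0.2 and 0.4). With miR-150 alone the groups overlapped as well, at differences of 0.67, 0.83 and 0.68 (exact permutation tests, two-sided p = 0.6, 0.4 and 0.5).

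A shift in this direction, per the 4 leukocyte miRNAs, was common on the array. Of the remaining 457 miRNAs, which include the members, 74.8% had a higher mean per leukocyte miRNA in EC-Dicerflox mice, by a median of 0.50 log2 units. Of them, 74.8% had a smaller difference than miR-146a, 64.6% than miR-155 and 63.7% than miR-21. Against the EC-enriched miRNAs the direction turned: the log2 differences were -0.38 for miR-21, -0.23 for miR-146a and -0.38 for miR-155 (exact permutation tests, two-sided p = 0.3, 0.5 and 0.3). Against the smooth muscle miRNAs miR-143 and miR-145 they were 0.052, 0.21 and 0.059 (exact permutation tests, two-sided p = 1, 0.4 and 1). The CT of miR-145 spanned only 0.265 cycles over the 6 aortas, against 1.26 for miR-143. Its log2 level per U6 and snoRNA135 was 5.42 in EC-Dicerflox replicate 3, against 4.10 and 4.01 in replicates 1 and 2. Whether the miR-145 assay followed the RNA of each sample was not tested, which limits this reference. The direction of the members' estimates therefore depended on which cell type's miRNAs served as the reference.

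**Figure D4:**
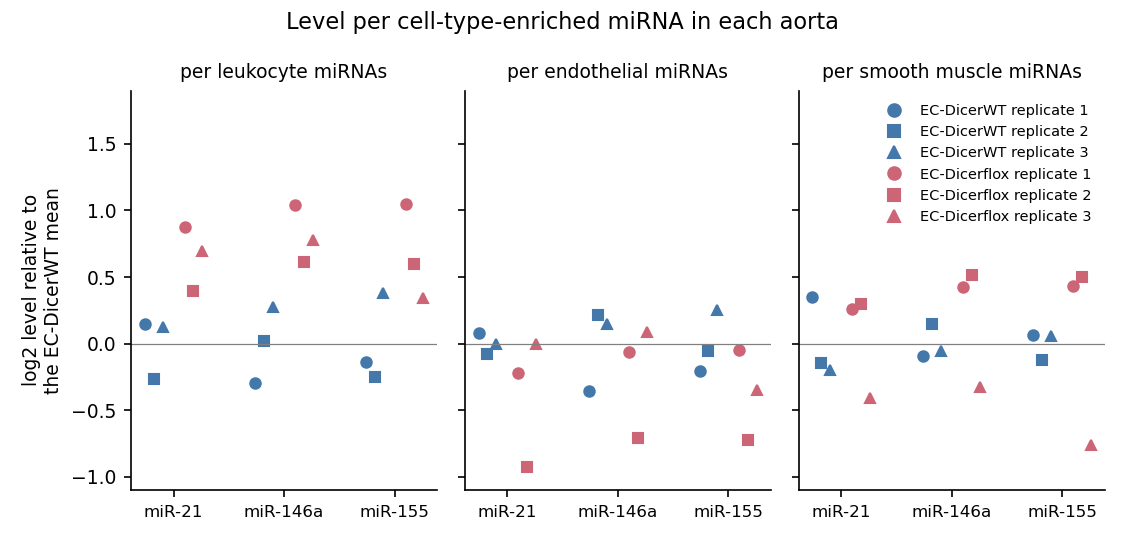
Log2 level of miR-21, miR-146a and miR-155 in each aorta per leukocyte miRNAs (left), EC-enriched miRNAs (middle) and smooth muscle miRNAs (right), each relative to the EC-DicerWT mean. The EC-Dicerflox points lie higher on average on the left (differences of 0.66, 0.81 and 0.66), lower in the middle (-0.38, -0.23 and -0.38) and on both sides of 0 on the right.

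The members were set beside 23 other miRNAs known from NF-kB signalling, macrophages or endothelial inflammation, of which 22 were on the cards and all 22 were detected in all 6 aortas. None passed an adjusted or an unadjusted p-value of 0.05 (smallest unadjusted limma p-value of 0.109). The estimates of 17 of the 22 were above 0, as were 54.4% of all 461, and those of 5 below, with a median log2 fold change of 0.14, against 0.082 over all 461 miRNAs. The number above 0 was 9 with snoRNA202 as the control RNA, 12 with all 5 control RNAs, 13 with snoRNA135 alone and 19 with U6 alone. The share of all 461 miRNAs above 0 with these references was not computed. The groups did not overlap for 4 of the 22, against 10.4% of all 461 miRNAs. These were miR-9, miR-34a, miR-125b-5p and miR-126-3p, with all EC-Dicerflox aortas higher.

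The lowest estimates of the list were those of miR-10a, known to restrain NF-kB signalling in ECs, and of miR-181c. MiR-10a had a log2 fold change of -0.78 (95% interval -3.35 to 1.80) and miR-181c of -0.23 (95% interval -1.59 to 1.12). The CT values of miR-10a were 22.99, 22.55 and 24.44 in EC-Dicerflox and 22.90, 23.66 and 20.63 in EC-DicerWT mice, so that EC-DicerWT replicate 3 alone stood apart. The highest were those of miR-15a, which represses the survival gene Bcl2 (0.67, 95% interval -0.82 to 2.15) and of miR-9, which NF-kB induces and which represses Nfkb1 (0.49, 95% interval -0.17 to 1.14). MiR-132, induced by toll-like receptor signals and a regulator of the coactivator p300, had an estimate of 0.16, and its cluster partner miR-212 of -0.039.

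**Figure D5:**
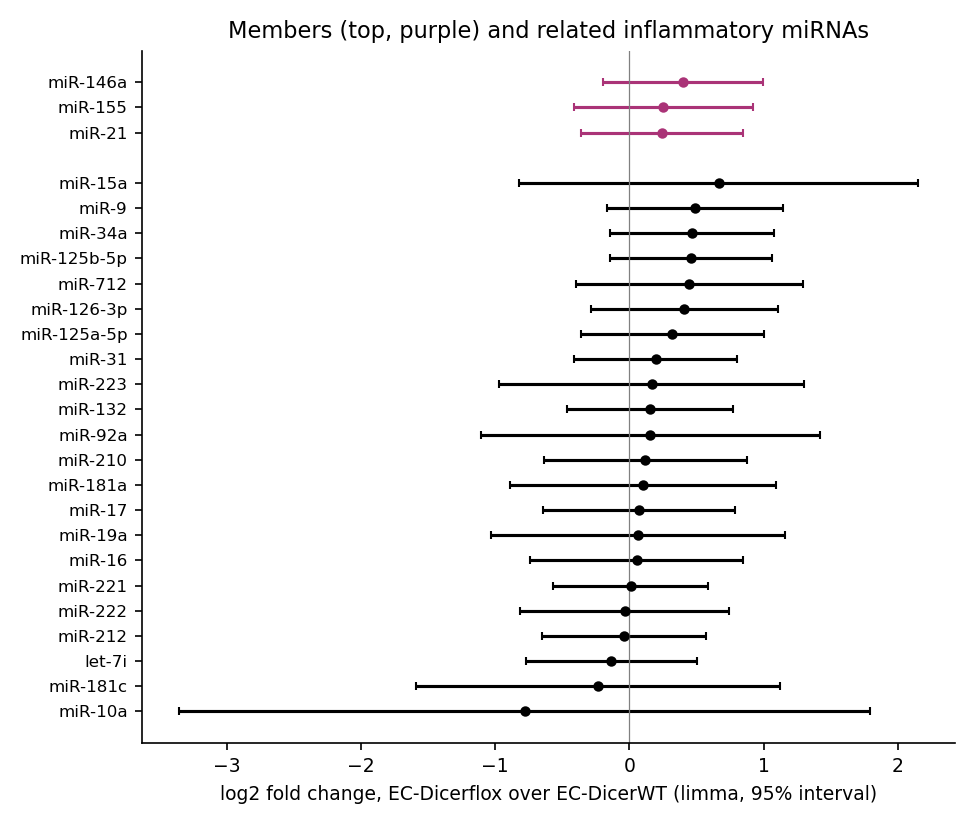
Log2 fold change of EC-Dicerflox over EC-DicerWT mice (points) with the 95% interval from limma (bars) for miR-21, miR-146a and miR-155 (purple, top) and the 22 related miRNAs on the cards (black), in the order of their estimates. All intervals include 0, and the estimates run from -0.78 (miR-10a) to 0.67 (miR-15a).

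The members were also compared in their pattern over the 6 aortas. Pearson's r of the log2 levels was 0.333 between miR-21 and miR-146a, 0.284 between miR-21 and miR-155 and 0.566 between miR-146a and miR-155. These values describe 6 samples of both groups, which share the control RNAs. Among the 318 miRNAs whose CT stayed under 35 throughout, the most like miR-21 were miR-125b-5p (r of 0.955), miR-148a (0.925) and miR-195 (0.919). MiR-146a ranked 105 and miR-155 ranked 112 in likeness to miR-21, and miR-155 ranked 38 in likeness to miR-146a. Those most like miR-146a were miR-671-3p (0.917), miR-574-3p (0.869) and miR-532-3p (0.842), and those most like miR-155 were miR-496 (0.898), miR-337 (0.829) and miR-125b* (0.771).

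MiR-590-5p, a further miRNA of the miR-21 seed family that was chosen here after its values were seen, showed a split by replicate number. Its strand is not in the RefSeq table used here, so that its seed was not checked. Its CT values were 17.43 and 16.79 in EC-Dicerflox replicates 1 and 2 and 16.73 and 18.05 in EC-DicerWT replicates 1 and 2. In replicate 3 it was listed at 40 in the EC-Dicerflox and at 34.29 in the EC-DicerWT aorta. MiR-21 of the same samples differed by at most 1.39 cycles.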

How the data were processed

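Total RNA of 6 aortas was reverse-transcribed and pre-amplified by the authors with the Megaplex rodent pools and run on TaqMan MicroRNA cards; the threshold and baseline settings are not given in the sources used here. The authors deposited raw CT values, with 40 for wells without a signal. Samples were grouped by their labels, which call the mice male where the methods call them female; 0 sample columns were left unused. Levels are the mean CT of the control RNAs U6 and snoRNA135 (4 wells per sample) minus the CT of the miRNA. The groups were compared with limma 3.58.1 in R 4.3.3 (prior of 1.31 degrees of freedom) over the 461 miRNAs that were under 40 in any sample, with Benjamini-Hochberg adjustment, and single values by exact permutation. The number of arrays, 3 per group, limits the precision.

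The members, the lists and the alternatives were chosen with earlier results of these data known. The miRNAs named are the members, their star strands, the 3 most alike patterns (CT under 35 in all samples), miRNAs that share a member's seed and, of the related list, the 2 lowest, the 2 highest and any with an unadjusted p-value under 0.05. The cell type markers come from their own lists. MiR-34a and miR-126-3p (as miRNAs whose groups did not overlap), miR-132, miR-212 and miR-590-5p were added after their values were seen. The endothelial and smooth muscle references, the controls of the own card and the fit with at least 1 well per group were chosen after seeing the data. Aortas with equal replicate numbers deviated from their group means together (correlations of 0.15, 0.224 and 0.431 over 350 miRNAs, each over 0.1), so that the numbers were taken as pairs. EC-Dicerflox replicate 1 correlated more with EC-DicerWT replicate 2 (0.285) than with its own number, and EC-Dicerflox replicate 2 with EC-DicerWT replicate 1 at 0.117. The labels name no shared litter or day, so that the pairing by number is not established.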

Additional observations from a re-analysis of the deposited data

How the results depend on the processing

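The log2 fold changes of miR-21, miR-146a and miR-155 were above 0 with the 7 other references and in the 6 fits that left out 1 sample; the other 8 alternatives leave these estimates as they are and bear only on the p-values. That of miR-147 was below 0 in 8 of the 9 alternatives that moved it and in 6 such fits. With wells at 40 left missing and at least 1 well per group it turned to 1.54, and its difference relative to miR-155 from -4.39 to 1.12 (-2.59 without EC-Dicerflox replicate 1, -7.15 without EC-Dicerflox replicate 2); with at least 2 wells per group miR-147 leaves the fit. No member passed an adjusted p-value of 0.05 in any of these. In a paired fit (replicate number as a block), the log2 fold changes were unchanged and the unadjusted p-values were 0.396 for miR-21, 0.185 for miR-146a, 0.148 for miR-147 and 0.457 for miR-155, and no call changed. Over all miRNAs, 0 to 2 passed an adjusted p-value of 0.05 when 1 sample was left out: 2 without EC-Dicerflox replicate 1, 1 without EC-Dicerflox replicate 3, and none of them a member. The number with an unadjusted p-value under 0.05 was 9 with U6 alone and 24 with the ordinary linear model, against 14, and 12 to 22 without 1 sample. Of the 22 related miRNAs, 9 had an estimate above 0 with snoRNA202 alone, 12 with all 5 control RNAs, 13 with snoRNA135 alone and 19 with U6 alone, against 17. Relative to the endothelial in place of the leukocyte miRNAs, the difference turned to -0.383 for miR-21, -0.228 for miR-146a and -0.375 for miR-155. Without 1 sample, the difference of miR-155 relative to miR-21 ranged from -0.133 to 0.186, turning to -0.133 without EC-DicerWT replicate 1, -0.0747 without EC-Dicerflox replicate 1 and -0.0887 without EC-Dicerflox replicate 2. That of miR-21 relative to miR-21* ranged from -0.418 to 0.83, turning to -0.418 without EC-DicerWT replicate 2 and -0.319 without EC-Dicerflox replicate 3. The causes were not tested.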
